A study of Homo sapiens with 40 samples.

Results

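The 9 genes described here belong to the integrated stress response, and were followed in AG01522 normal human skin fibroblasts after X-rays. They were DDIT3, CHAC1, TRIB3, ATF4, ATF5, ASNS, PSAT1, DDIT4 and PPP1R15A, or 9 of the 18244 genes measured. A probe set counted for a gene when the annotation named that gene alone, which gave 25 of 45284 probe sets. Where a gene had several, the one with the greatest average over the 40 arrays stood for it. The list was drawn up because DDIT3 and CHAC1 were high against sham in these data from 6 h on. For these 2 genes the values against sham are therefore a description, with no test. Confluent cultures were sham irradiated (4 arrays) or given 5 cGy alone, 2 Gy alone, or the small dose as priming and the large one 12 h later as challenge (5 cGy + 2 Gy). Each of these 3 treatments was sampled at 3, 6, 12 and 24 h, counted from its final dose, on 3 arrays a time, which makes 12 irradiated groups. Where 3 values are given for the treatments in turn, they stand in that order. The sham arrays carry no time in the labels, so time in culture and irradiation cannot be told apart in any comparison with sham. All arrays came from 1 cell line.

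The integrated stress response starts with kinases that sense amino acid shortage, misfolded protein in the endoplasmic reticulum, double-stranded RNA or lack of heme. Each phosphorylates the translation initiation factor eIF2, which lowers protein synthesis in general while a few messenger RNAs with upstream reading frames, such as that of ATF4, are translated better. ATF4 then switches on genes of amino acid supply and of stress signalling. Much of this control acts on translation, whereas the arrays measured RNA only.

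Promoters are shown first because ATF4 binds DNA as a dimer with C/EBP proteins, at a composite site written here as TGATGNAA. Of the 250 bases before the start of each gene (RefSeq, GRCh38.p14, all 9 genes found), those of 2 members held TGATGNAA or its reverse complement TTNCATCA. The same letters were in 870 of 27305 promoters of that length (3.19%). The cyclic AMP response element TGACGTCA, which reads the same on both strands, was in 1 member and in 482 promoters (1.77%). The 58 bases around each match follow on the strand of the gene, with the matched letters in capitals. CHAC1 is at chr15:40953237-40953294 on the plus strand and matches on the opposite strand, 209 to 202 bases before the start.
CHAC1: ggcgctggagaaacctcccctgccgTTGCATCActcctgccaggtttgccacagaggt
ASNS is at chr7:97872444-97872501 on the minus strand, with its match 68 to 61 bases before the start.
ASNS: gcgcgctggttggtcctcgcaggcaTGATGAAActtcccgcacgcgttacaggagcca
PPP1R15A is at chr19:48872338-48872395 on the plus strand, with TGACGTCA 58 to 51 bases before the start.
PPP1R15A: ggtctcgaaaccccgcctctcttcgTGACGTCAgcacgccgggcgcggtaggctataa
A match is a description of the letters in this window. The 3 genes shown did not move alike.

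Values are log2 intensities, and array medians lay between 5.62 and 5.70. All 8 fibroblast markers were measured, with a median percentile of 98.0 among all genes and a summed log2 level of 101.0 to 103.3 across the groups. The median percentiles of keratinocyte (5 of 6 markers measured), melanocyte (5 of 6), endothelial (6 of 6), leukocyte (5 of 6) and adipocyte (4 of 4) markers were 26.5, 38.9, 36.8, 22.8 and 26.4. Smooth muscle and myofibroblast markers, several of which fibroblasts also express, had 92.5. Against sham, 5 marker values were called, all at 24 h. PDGFRB, a fibroblast marker, was higher after each treatment (0.45, 0.39 and 0.41), CD3E, a leukocyte marker, was higher after 5 cGy (0.39) and TEK, an endothelial marker, was lower after 5 cGy + 2 Gy (-0.83). Their part in the results was not tested. Sham replicate 1 deviated most from its group, by 0.336 (root mean square over genes) against at most 0.224 for any other array. The 3′ minus 5′ difference of GAPDH, a sign of RNA quality, was 1.05 in 2 Gy at 24 h replicate 1, 0.38 to 0.68 in 2 Gy at 3 h and 0.23 to 0.42 in all other arrays.

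The members did not follow a common course. The group means of DDIT3, CHAC1 and DDIT4 lay above sham from 6 h on after all 3 treatments. ATF4 differed less and passed against sham only at 24 h, TRIB3 rose between 6 h and 12 h, and ATF5, ASNS, PSAT1 and PPP1R15A passed no test of a rise. Each array holds RNA of a whole culture, so more cells with a transcript and more transcript per cell cannot be told apart.

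**Figure D1:**
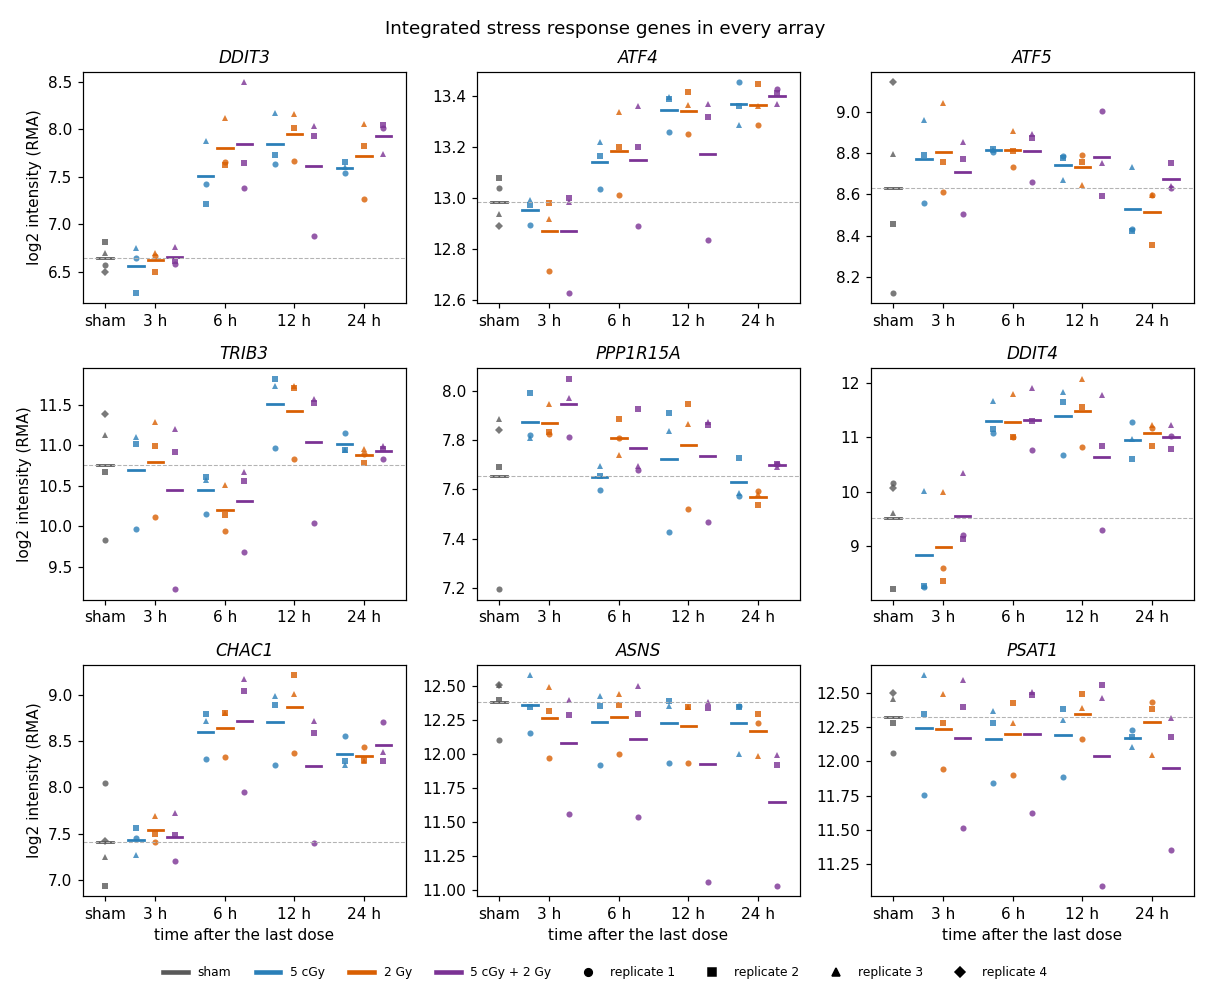
Log2 intensity (vertical axis) of the 9 members on all 40 arrays, by group (horizontal axis), with colours for treatments, symbols for replicate numbers, short bars for group means and a dashed line for the sham mean. In the DDIT3 panel every array from 6 h on, 6.87 at the lowest, lies above the highest sham array of 6.81.

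DDIT3 encodes CHOP, a transcription factor that acts downstream of ATF4 and promotes cell death when stress lasts. Its log2 values were 6.57, 6.81, 6.70 and 6.50 on the 4 sham arrays. Over the 9 irradiated arrays of a time, the lowest, median and highest were 6.28, 6.64 and 6.76 at 3 h and 7.22, 7.65 and 8.49 at 6 h. They were 6.87, 7.92 and 8.17 at 12 h, and 7.26, 7.74 and 8.06 at 24 h. No array from 6 h on overlapped with sham or with the 3 h arrays, after any treatment. For a single group from 6 h on, 1.81% (5 cGy at 6 h) to 9.09% (5 cGy + 2 Gy at 24 h) of all genes lay wholly above sham. Of all genes, 12 (0.0658%) had every array from 6 h on above every sham array and 11 (0.0603%) above every 3 h array, and DDIT3 was the only member among either. Since DDIT3 was chosen for being high on these arrays, its place among so few genes is a description and no support. The difference from sham in log2 fold change (SE 0.229) was -0.09, -0.02 and 0.01 at 3 h for the treatments in turn. It was 0.86, 1.16 and 1.2 at 6 h, 1.2, 1.3 and 0.97 at 12 h, and 0.95, 1.07 and 1.29 at 24 h. The level at 12 h after 2 Gy was thus 2.47 times that of sham.

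ATF4, the central transcription factor of the response, changed by far less than DDIT3. The sham arrays read 13.04, 13.08, 12.94 and 12.89, and the median of the 9 irradiated arrays was 12.97 at 3 h, 13.20 at 6 h, 13.36 at 12 h and 13.37 at 24 h. The 9 arrays at 24 h ran from 13.28 to 13.45, all above the highest sham array. Against sham at 24 h ATF4 rose 1.3-fold after 2 Gy (0.38 ± 0.113, limma adjusted p = 0.0399) and 1.33-fold after 5 cGy + 2 Gy (0.41 ± 0.113, adjusted p = 0.0148). After 5 cGy the difference was the same size, 0.38 with an adjusted p of 0.0570. The call after 2 Gy was lost (adjusted p up to 0.149) on leaving out any of sham replicates 2, 3 and 4 or any of the 3 arrays of 2 Gy at 24 h. The call after 5 cGy + 2 Gy was lost (adjusted p up to 0.0586) without replicate 1 or 2 of that group at 24 h.

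ATF5, a related factor that takes part in the mitochondrial branch of the response, gave sham values of 8.12, 8.46, 8.79 and 9.14. All 12 irradiated group means lay within -0.11 and 0.19 of the sham mean in log2 (SE 0.149), and none passed the test.

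DDIT4 (REDD1) restrains the growth kinase mTORC1 and is also induced by hypoxia and glucocorticoids. It had the widest spread of the members. The sham arrays read 10.17, 8.21, 9.62 and 10.08, and the 3 h arrays ran from 8.25 to 10.35 with a median of 9.14. At 6 h the 9 arrays ran from 10.77 to 11.90 (median 11.15), at 12 h from 9.30 to 12.08 (median 11.56), and at 24 h from 10.60 to 11.28 (median 11.03). At 6, 12 and 24 h every group except 5 cGy + 2 Gy at 12 h lay wholly above the sham arrays. The log2 fold change against sham was 1.87 at 12 h after 5 cGy (adjusted p = 0.0929), 1.97 at 12 h after 2 Gy (adjusted p = 0.0505) and 1.5 at 24 h after 5 cGy + 2 Gy (SE 0.493 each). Only the last passed in the main fit, as a 2.82-fold rise with an adjusted p of 0.0478. It failed (adjusted p up to 0.230) without sham replicate 2, sham replicate 3 or any of the 3 arrays of that group. Without sham replicate 1 DDIT4 passed in 4 comparisons, also at 6 h after 5 cGy + 2 Gy (adjusted p = 0.0416) and at 12 h and 24 h after 2 Gy (0.0274 and 0.0237). Of 18244 genes, 99.9% had a smaller residual SD than DDIT4 (0.70).

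TRIB3 is a pseudokinase induced by CHOP and ATF4 that dampens both ATF4 and AKT signalling. Its sham arrays read 9.83, 10.67, 11.12 and 11.38. The 9 arrays of a time had medians of 10.99 at 3 h, 10.50 at 6 h, 11.57 at 12 h and 10.94 at 24 h. The arrays of a group differed least at 24 h, where the SD within a group was 0.08 to 0.12, against 0.25 to 1.07 at the earlier times. Against sham no group passed in the main fit, with log2 fold changes of 0.75, 0.67 and 0.29 at 12 h for the treatments in turn (SE 0.398). PPP1R15A (GADD34) brings phosphatase to eIF2 and so ends the response. It read 7.19, 7.69, 7.89 and 7.84 on the sham arrays, and the irradiated arrays ran from 7.81 to 8.05 at 3 h and from 7.54 to 7.73 at 24 h. At 3 h the difference from sham was 0.22, 0.22 and 0.29 for the treatments in turn (SE 0.129), with adjusted p values of 0.469 and above.

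CHAC1 degrades glutathione and is a target of ATF4 and CHOP. The 4 sham arrays read 8.04, 6.94, 7.25 and 7.42, with replicate 1 well above the other three. The 9 arrays of a time ran from 7.20 to 7.72 at 3 h (median 7.48), from 7.94 to 9.17 at 6 h (median 8.79), from 7.40 to 9.21 at 12 h (median 8.71) and from 8.24 to 8.71 at 24 h (median 8.30). From 6 h on every group of 5 cGy and of 2 Gy lay above all sham arrays, while 5 cGy + 2 Gy did so only at 24 h. The difference from sham (SE 0.273) was 1.19, 1.23 and 1.31 at 6 h, 1.29, 1.45 and 0.82 at 12 h, and 0.95, 0.92 and 1.05 at 24 h for the treatments in turn.

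ASNS makes asparagine and PSAT1 acts in serine synthesis. Both are known targets of ATF4, and neither rose. The sham arrays read 12.10, 12.40, 12.51 and 12.51 for ASNS. The arrays of 24 h after 5 cGy + 2 Gy read 11.03, 11.92 and 11.99, all below sham (as were 7.57% of all genes in that group), a difference of -0.73 ± 0.260 with an adjusted p of 0.0703. At 24 h after the single doses ASNS read 12.35, 12.35 and 12.00 (5 cGy) and 12.23, 12.29 and 11.98 (2 Gy). On its main probe set PSAT1 read 12.07, 12.29, 12.46 and 12.50 on the sham arrays. At 24 h after 5 cGy + 2 Gy it read 11.35, 12.18 and 12.32 (-0.38 ± 0.285, adjusted p = 0.489), while most of its other 7 probe sets fell further. The dimmest of these averaged 8.63 in sham and 7.71 in that group, and the brightest of them 11.91 and 11.57. Single arrays moved these values. Without sham replicate 1 the difference of ASNS in that group was -0.82 (adjusted p = 0.0462), and without replicate 1 of the group itself it was -0.42 (adjusted p = 0.451) and that of PSAT1 was -0.08.

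Counting the calls, an adjusted p under 0.05, shows how the list stood as a whole, and the counts of DDIT3 and CHAC1 are printed only for completeness since these genes were chosen on this contrast. In the main fit all calls with the full set of arrays were of higher values. At 3 h none of the 9 members was called, where 0, 0.132% and 0.132% of all genes were called in either direction for the treatments in turn. At 6 h DDIT3 and CHAC1 were called after 2 Gy (0.192% of all genes) and after 5 cGy + 2 Gy (0.378%) and neither after 5 cGy (0). At 12 h both were called after 5 cGy (0.329%) and after 2 Gy (0.669%), and DDIT3 alone after 5 cGy + 2 Gy (1.40%). At 24 h both were called after each treatment, when 3.11%, 6.05% and 9.92% of all genes were called. The other 7 members gave 0 of 28 calls after 5 cGy, 1 of 28 after 2 Gy (ATF4 at 24 h) and 2 of 28 after 5 cGy + 2 Gy (ATF4 and DDIT4 at 24 h). With the replicate number as a block, these 7 members gave 6, 6 and 5 of 28. That fit called 4.50%, 6.13% and 7.69% of all genes. Its calls were DDIT4 from 6 h on after each treatment, and ATF4 at 24 h after each and at 12 h after the single doses. The rest were TRIB3 at 12 h after the single doses and ASNS, lower, at 24 h after 5 cGy + 2 Gy. The median difference of the 9 members from sham, DDIT3 and CHAC1 included, at 12 h was 0.36, 0.36 and 0.19 for the treatments in turn, where the median of all genes was 0.02, -0.00432 and 0.02. Over all 12 groups it ran from -0.03 to 0.36. Without sham replicate 1 and replicate 1 of 5 cGy + 2 Gy at 12 h, left out together after seeing the data, the other 7 members gave 3, 4 and 5 calls. Of the last 5 calls 1 was of a lower value, ASNS at 24 h. No share of all genes is given for this setting, so its counts are a description.

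The irradiated groups carry times of their own, so the steps between them do not rest on the sham arrays. No unirradiated array carries one of these times. Time since the dose and time in culture therefore cannot be told apart in a step either. Between 3 h and 6 h, as the mean of the 3 treatments (18 arrays, a comparison added after the data had been seen), DDIT4 rose 4.48-fold (2.17 ± 0.304, adjusted p = 5.8e-05), CHAC1 2.27-fold (1.18 ± 0.169, adjusted p = 6.4e-05) and DDIT3 2.15-fold (1.11 ± 0.141, adjusted p = 1.2e-05). ATF4 rose 1.2-fold (0.26 ± 0.070, adjusted p = 0.0298). These were 4 of 9 members, where 4.29% of all genes were called at this step. The 6 h arrays of DDIT3 and CHAC1 were among those on which the genes were chosen, so their step is not independent of that choice. DDIT4 and ATF4 were listed as genes of the response, though with earlier results of these data known. The step of DDIT4 and ATF4 is therefore not shown to be independent either. TRIB3 (-0.33), PPP1R15A (-0.15), ATF5 (0.05), ASNS (-0.03) and PSAT1 (-0.03) did not pass. The median over all genes was -0.05.

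Between 6 h and 12 h TRIB3 rose 2.01-fold (1.01 ± 0.245, adjusted p = 0.0165), and no other member passed (adjusted p of 0.400 and above, 3.18% of all genes called). Between 12 h and 24 h 0 of 9 members passed by limma, with 0 at an unadjusted p under 0.05, while 5.60% of all genes were called in either direction. Leaving out any 1 of the 18 arrays of a step kept the calls of DDIT3, CHAC1 and DDIT4. ATF4 lost its call (adjusted p up to 0.0754) without replicate 2 of 5 cGy at 3 h or 2 Gy at 6 h, replicate 3 of 5 cGy at 6 h, replicate 1 of 5 cGy + 2 Gy at 3 h, or replicate 2 or 3 of 5 cGy + 2 Gy at 6 h. TRIB3 lost its call (adjusted p = 0.0507) without replicate 3 of 5 cGy + 2 Gy at 12 h.

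**Figure D2:**
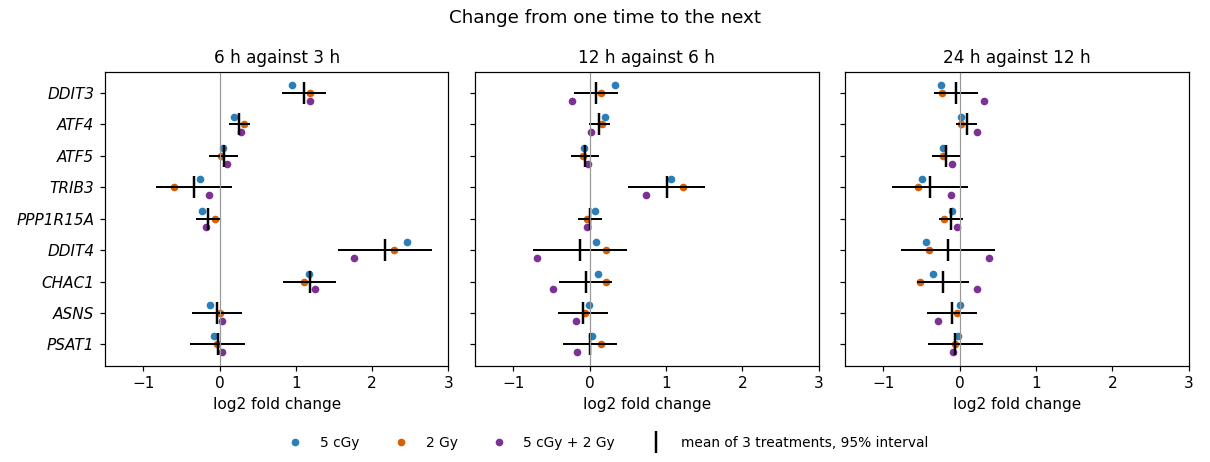
Log2 fold change of the 9 members between successive times (6 h against 3 h, 12 h against 6 h, 24 h against 12 h), with a point for each treatment and the mean of the 3 treatments with its 95% interval. DDIT4 (2.17), CHAC1 (1.18) and DDIT3 (1.11) stand apart at the first step, TRIB3 (1.01) at the second, and no member at the last.

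Within single treatments 3 of 81 pairs of a member and a step passed. For DDIT3, which gave 2 of the 3, the 6 h arrays had a part in choosing the gene, so its calls are no independent support. After 2 Gy DDIT3 rose by 1.18 (adjusted p = 0.0293) and DDIT4 by 2.29 (adjusted p = 0.0431) from 3 h to 6 h, when 0.482% of all genes were called. After 5 cGy + 2 Gy DDIT3 rose by 1.19 (adjusted p = 0.0459), with 0.0877% of genes called. After 5 cGy the same step of DDIT3 was 0.95 with an adjusted p of 0.325, and 0.00548% of genes were called. The later steps had no member called, with 0.0110%, 0.170% and 0 of all genes from 6 h to 12 h for the treatments in turn and 0.0658%, 0.554% and 0.378% from 12 h to 24 h. Each of the 3 calls was lost on leaving out single arrays. For DDIT3 after 2 Gy these were replicates 2 and 3 at 3 h and 1 and 2 at 6 h (adjusted p up to 0.0864). For DDIT4 they were replicates 1 and 2 at 3 h and each of the 3 at 6 h (up to 0.125). For DDIT3 after 5 cGy + 2 Gy they were each of the 3 at 3 h and replicates 2 and 3 at 6 h (up to 0.768).

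The doses of 5 cGy and 2 Gy were compared at matched times. No member was called in any of 36 pairs (lowest unadjusted p 0.238, 0.0274% of all genes called at 3 h and at 6 h, 0.0110% at 12 h and 0.175% at 24 h), and the log2 differences ran from -0.25 to 0.29. As the mean of 4 times, 2 Gy minus 5 cGy was 0.14 for DDIT3 (95% interval -0.11 to 0.39), 0.07 for CHAC1 (-0.23 to 0.37), 0.09 for DDIT4 (-0.45 to 0.62), -0.01 for ATF4 (-0.13 to 0.11) and -0.09 for TRIB3 (-0.52 to 0.34). It was 0.00221 for ATF5 (-0.16 to 0.16), -0.03 for ASNS (-0.32 to 0.25), 0.08 for PSAT1 (-0.23 to 0.39) and 0.04 for PPP1R15A (-0.10 to 0.18). This mean was added after the data had been seen, and 0 of 9 members passed where 0.230% of all genes did. An interval that contains 0 does not show that the doses act alike. For DDIT3 its upper end, 0.39, lies below the step of 1.11 from 3 h to 6 h, but these are unlike measures. The first bounds a mean of 4 times, 3 h included. The second is a single step whose 6 h arrays had a part in choosing the gene. No conclusion is drawn from the pair. The p53 targets CDKN1A, a cell cycle inhibitor, and MDM2, which degrades p53, check the dose labels. Both were higher after 2 Gy, by 0.61 ± 0.053 (adjusted p = 7.3e-09) and 0.82 ± 0.147 (adjusted p = 0.00289).

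**Figure D3:**
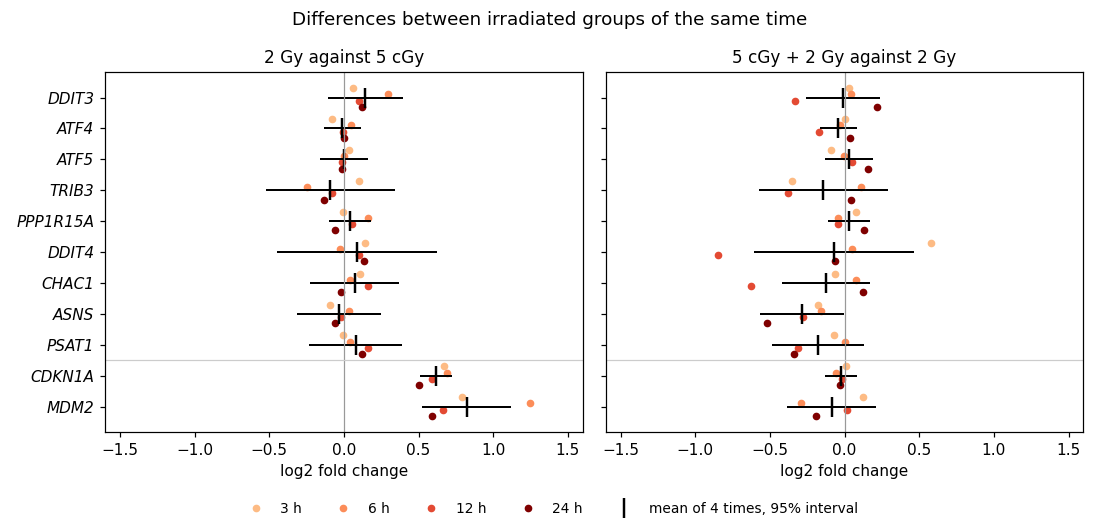
Log2 difference of 2 Gy from 5 cGy and of 5 cGy + 2 Gy from 2 Gy for the 9 members and for CDKN1A and MDM2, with a point for each time and the mean of 4 times with its 95% interval. The dose interval of every member spans 0, whereas CDKN1A (0.61) and MDM2 (0.82) lie above it.

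The priming dose was tested as 5 cGy + 2 Gy against 2 Gy. None of 36 pairs passed by limma and 0 of all genes were called at any time. One pair of the 36, CHAC1 at 12 h (-0.63), had an unadjusted p under 0.05. Replicate 1 of 5 cGy + 2 Gy at 12 h was the lowest of its group in 8 of 9 members (DDIT3 6.87, CHAC1 7.40, DDIT4 9.30, ATF4 12.84), ATF5 being the exception. Without it the difference at 12 h went from -0.33 to 0.04 for DDIT3, from -0.63 to -0.21 for CHAC1 and from -0.85 to -0.18 for DDIT4. As the mean of 4 times ASNS was lower after priming by -0.29 (95% interval -0.57 to -0.0025, adjusted p = 0.968), and the mean was -0.18 without that array.

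At 12 h after the challenge dose, 24 h had passed since the priming dose. Against 5 cGy at 24 h the group had 0 of 9 members called (0 of all genes). The test of additivity subtracted the effects of 2 Gy at 12 h and of 5 cGy at 24 h from that of 5 cGy + 2 Gy at 12 h. It gave -1.29 ± 0.335 for DDIT3, -1.57 ± 0.400 for CHAC1, -2.28 ± 0.721 for DDIT4 and -0.55 ± 0.165 for ATF4. For TRIB3, ATF5, ASNS, PSAT1 and PPP1R15A it lay between -0.64 and 0.15. The first 4 had an unadjusted p under 0.05, and none of the 9 passed by limma after adjustment (adjusted p from 0.420 to 0.580 for these 4, 0.0110% of all genes called). Without replicate 1 of 5 cGy + 2 Gy at 12 h the value went to -0.92 for DDIT3, -1.16 for CHAC1 and -1.61 for DDIT4. Sham, 2 Gy and 5 cGy arrays all enter this value, and DDIT3 and CHAC1 were chosen on their differences from sham.

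Ranking the 13 group means of a gene gives 12 pairs of neighbours. Neighbours differed by more than the larger of their SDs in 1 pair for DDIT3 (5 cGy at 6 h over 5 cGy + 2 Gy at 3 h, a gap of 0.85), in 1 pair for ATF4 (5 cGy at 6 h over sham) and in none for the other 7 members. In the order of DDIT3 that pair parts sham and the 3 h groups from all other groups. DDIT3 was chosen for being high against sham from 6 h on, so this split is a description and no support. The largest gap of DDIT4 was wider, 1.07 (5 cGy + 2 Gy at 12 h over 5 cGy + 2 Gy at 3 h), but stayed within the larger SD. Groups farther apart in the order were not compared here.

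Members also varied together among arrays of the same group. Over the 40 arrays Pearson's r was 0.86 between DDIT3 and CHAC1, 0.86 between DDIT3 and DDIT4, 0.89 between CHAC1 and DDIT4 and 0.92 between ASNS and PSAT1. DDIT3 and CHAC1 were both chosen for being high on the same arrays, so the r between them is not independent of that choice. Taking deviations from the group means, r was 0.97 for ASNS with PSAT1, 0.85 for TRIB3 with PSAT1 and 0.79 for ATF4 with ASNS. Over the 13 group means the same pairs gave 0.84, 0.05 and -0.39. Of 36 pairs of members, 22 had a within-group r over 0.5 and 9 had a group-mean r over 0.5. Arrays share their hybridisation and RNA, so these values are descriptions. Over all genes, 37 of the 39 arrays numbered 1 to 3 deviated most like arrays of their own number. How common such r values are among all pairs of genes was not counted, so they are not shown to be particular to the members.

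Arrays with the same replicate number tended to deviate the same way in several members. Replicate 1 lay below its group mean for TRIB3 in 11 of 13 groups (mean -0.52), and its mean deviation was -0.37 for PSAT1, -0.33 for ASNS and -0.31 for DDIT4. Replicate 3 lay above its group mean for DDIT4 in 13 of 13 groups (mean 0.55) and for DDIT3 and TRIB3 in 12 of 13. The labels do not say what a number shares between groups. A fit with the number as a term is given with the other processing choices.

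**Figure D4:**
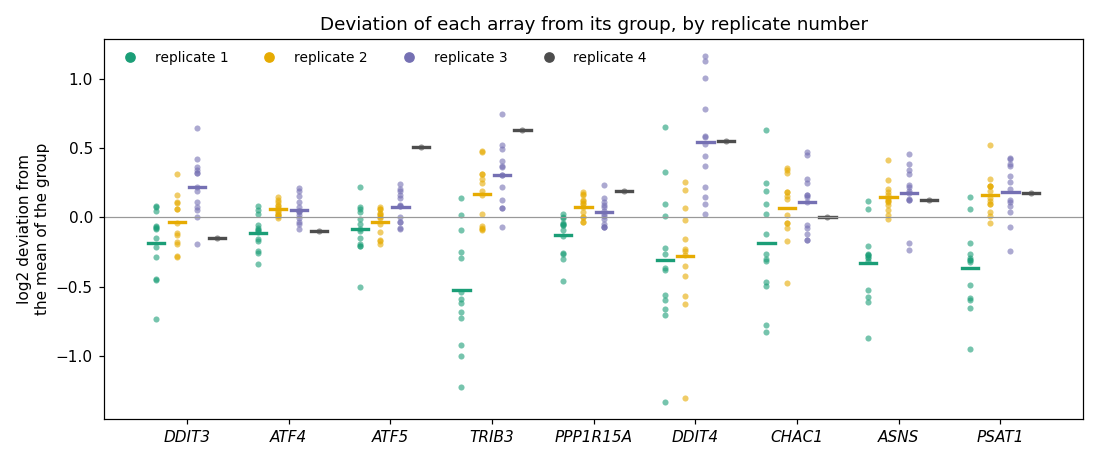
Deviation of each array from its group mean in log2 (vertical axis) by replicate number (horizontal axis) for the 9 members. Replicate 1 of TRIB3 averages -0.52 and replicate 3 of DDIT4 averages 0.55.

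The genes whose levels ran most like a member were taken by Pearson's r over the 40 arrays. For DDIT3 they were CHAC1 (0.86), DDIT4 (0.86), LURAP1L (0.85), ZNF425 (0.85) and ATF4 (0.84), and for CHAC1 DDIT4 (0.89) and ISL2 (0.88) led. That CHAC1 came first for DDIT3 is a description, since both were chosen for being high on these arrays. DDIT4 stood with CHAC1 (0.89) and ISL2 (0.88), and ATF4 with LURAP1L (0.84) and DDIT3 (0.84). ASNS stood with PSAT1 (0.92), the tRNA synthetase genes GARS1 (0.89) and WARS1 (0.88), and MTHFD2 (0.89), a mitochondrial folate enzyme. TRIB3 stood with RAB33A (0.93), CAMTA2 (0.93) and GTPBP2 (0.92), and its nearest member came at rank 746. For ATF5 (CIB1, 0.81) and PPP1R15A (HMOX1, a heme-degrading enzyme, 0.79) the nearest member came at ranks 1689 and 1665.

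Other probe sets of a gene bear on how far a level can be trusted. The other DDIT3 probe set ran with the main one (r = 0.97) and stood 0.70 to 1.12 above sham from 6 h on. The other CHAC1 probe set was dim (mean 5.60) and moved by 0.04 to 0.40 (r = 0.72), and that of TRIB3 was also dim (mean 5.99, r = 0.77). The ASNS probe sets ran together (r from 0.98 to 0.99). With the main probe set of their gene, the others gave r from 0.72 to 0.99 for PSAT1 and from 0.65 to 0.79 for ATF5. ATF4 and PPP1R15A have 1 probe set each, both of the kind that can bind related transcripts.

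Over all genes, 0.602%, 1.11% and 1.74% of the pairs of a gene and a comparison with sham were called higher for the treatments in turn, and 0.859%, 1.76% and 2.96% in either direction, against which the list counts are to be read. Of the wider pathway, 17 of 18 listed genes of ATF4-linked amino acid synthesis and transport were measured, and 0 of 68 pairs after each treatment were called higher against sham. Called lower were 0 pairs after 5 cGy, 1 after 2 Gy (SLC7A1, a cationic amino acid transporter, -0.51 at 24 h, adjusted p = 0.0237) and 3 after 5 cGy + 2 Gy at 24 h. These were SLC1A4, a neutral amino acid transporter (-0.64, adjusted p = 0.0282), SLC7A1 (-0.53, adjusted p = 0.0111) and ALDH1L2, a mitochondrial folate enzyme (-0.48, adjusted p = 0.0150). The list's median in these groups ran from -0.27 to -0.01. Among 13 aminoacyl-tRNA synthetase and tRNA export genes 1 of 52 pairs was called after 5 cGy + 2 Gy and 0 after the other treatments, namely GARS1, the glycyl-tRNA synthetase (-0.46 at 24 h, adjusted p = 0.00588).

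Other targets and partners of ATF4 and CHOP (12 genes) gave 1, 5 and 3 of 48 pairs called higher for the treatments in turn, and none lower. SESN2, a sestrin that p53 also induces, rose at 12 h by 1.31 (adjusted p = 0.00296), 1.45 (adjusted p = 0.000309) and 0.91 (adjusted p = 0.0273). ATF3, a stress transcription factor, rose by 1.48 at 3 h after 2 Gy (adjusted p = 0.0181) and fell by 1.10 from 3 h to 6 h in the mean of the 3 treatments. TNFRSF10B, a death receptor that p53 and CHOP induce, rose by 0.53 at 6 h after 2 Gy (adjusted p = 0.0236). The 16 genes of eIF2, its kinases, its exchange factor and linked sensors and regulators gave 0 pairs higher and 2 lower after 5 cGy, 0 and 1 after 2 Gy, and 1 and 3 after 5 cGy + 2 Gy. EIF2S1, the eIF2 subunit that the kinases phosphorylate, fell at 24 h by 0.50, 0.43 and 0.56 for the treatments in turn. OMA1, a mitochondrial protease that relays stress to the response, was the only gene of the list called higher against sham. It rose by 1.07 at 24 h after 5 cGy + 2 Gy (limma adjusted p = 0.0275). Its arrays there ran from 6.45 to 7.39 and overlapped sham, which ran from 5.31 to 7.22. The OMA1 mean at 24 h was 7.05 in that group, 6.93 after 2 Gy and 6.48 after 5 cGy.

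Of 16 genes of the IRE1 and ATF6 arms of the unfolded protein response none was called higher against sham. CALR, a chaperone of the endoplasmic reticulum, fell at 24 h by 0.39, 0.56 and 0.60 for the treatments in turn. Because DDIT4 also answers hypoxia and glucocorticoids, lists of both were counted. Of 6 glucocorticoid-induced genes, 0 pairs were called higher and 1, 2 and 1 of 24 lower for the treatments in turn. In the mean step from 3 h to 6 h PER1, a clock gene of this list, fell by 0.99, and from 6 h to 12 h TSC22D3, a leucine zipper protein, rose by 0.36 (adjusted p = 0.0296). Over the 3 mean steps 1 of 18 pairs of the list was called higher and 3 lower, where 2.46% of the pairs of all genes were called higher and 4.36% in either direction. Of 7 hypoxia-induced genes, ADM (0.41) was called higher and PDK1 (-0.83) lower after 5 cGy + 2 Gy, with PDK1 also lower after 5 cGy (-0.65). The part of either stimulus in the values of DDIT4 was not tested.

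**Figure D5:**
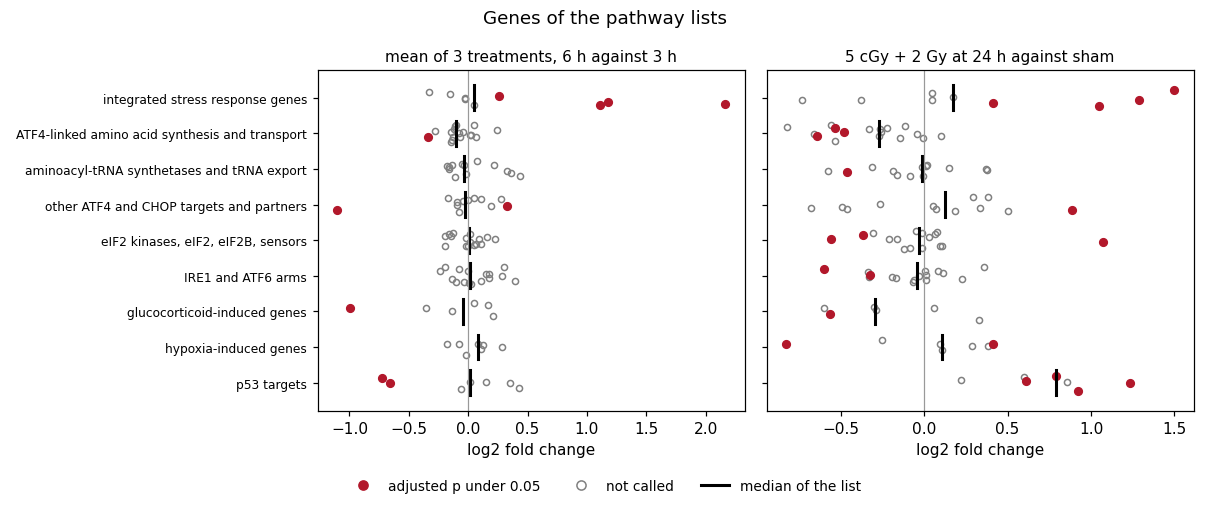
Log2 fold change of each gene of the pathway lists in 2 comparisons, the mean step from 3 h to 6 h and 5 cGy + 2 Gy at 24 h against sham, with red points for an adjusted p under 0.05 and a bar for the list median. In the list of ATF4-linked amino acid synthesis and transport the 3 red points of the second comparison, from -0.64 to -0.48, all lie below 0.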

How the data were processed

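The authors extracted total RNA, hybridised it to PrimeView arrays and summarised it by RMA (the submitters' processing notes give no version), so what they deposited are log2 intensities of probe sets after background adjustment and quantile normalization. The table held 49495 probe sets of the maker's own definition, 102 of them controls. A custom definition in the study's methods was not used here, and their interquartile range filter was tried as an alternative. Arrays have no depth, and their number limits the precision.

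Probe sets with exactly 1 annotated gene were kept (45284, with 1333 naming several genes and 2878 none), and 45214 matched a RefSeq gene identifier. A linear model with 13 group means was fitted to all 40 arrays (limma 3.58.1, R 4.3.3, 27 residual degrees of freedom). Tests were two-sided, with Benjamini-Hochberg adjustment over the 18244 genes of a comparison and a threshold of 0.05. Arrays of a group are biological replicates per the labels. Of 36 comparisons, 32 were fixed with the design and 4 (means over treatments or times) were added after the values had been seen. The members, the 8 pathway lists, the 7 marker lists and the tests were chosen with earlier results of these data known. The rule for named genes took all members, up to 3 called genes a list and family of comparisons, and the 5 genes most like each member, of which the text gives fewer. GPT2, CA9, FDXR, TP63 and DCT were not analysed here. The fit was tested on simulated data. Alternatives were the replicate number as a block, cyclic loess, only the arrays compared, array weights, the GAPDH difference as a covariate, other probe set choices, filters, the study's threshold and leaving out arrays.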

Additional observations from a re-analysis of the deposited data

Results flagged for a closer look

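Differences between successive time points were called in 8 cases, 3 within a treatment and 5 in means over the 3 treatments, which hold the same arrays. After 2 Gy the step from 3 h to 6 h was 1.18 for DDIT3 and 2.29 for DDIT4 in log2, and after 5 cGy + 2 Gy it was 1.19 for DDIT3. As the mean of the 3 treatments this step was 1.11 for DDIT3, 1.18 for CHAC1, 0.26 for ATF4 and 2.17 for DDIT4, and the step from 6 h to 12 h was 1.01 for TRIB3. In the 4 sham arrays no member had an array whose gap to the others passed Dixon's limit.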

How the results depend on the processing

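Over single members and comparisons, 6746 alternative values kept their side of the threshold, 117 lost a call, 112 gained one and none reversed. A fit with the replicate block, which drops the sham array numbered 4, moved the calls against sham from 4 to 10 after 5 cGy and from 7 to 12 after 2 Gy, those of successive times within a treatment from 3 to 9 and those of additivity from 0 to 4. The block raised the share of all genes called too, to 4.50%, 6.13%, 1.92% and 1.83% in these 4 families. It changed no call of priming or of 2 Gy against 5 cGy. Same-numbered arrays correlated in their deviations by 0.263 on average (186 of 234 pairs over 0.1, lowest -0.223), and 37 of 39 arrays correlated best with their own number. Different numbers gave -0.131. The labels do not say what a number marks, so what its arrays share is unknown. The counts (each treatment in turn against sham, then successive times) were 1, 2, 1 and 0 with only the arrays compared and 11, 11, 12 and 13 at the study's threshold, which also gave 1 call for priming at single times, 1 over all times and 4 for additivity. That threshold passed 6.57%, 9.49%, 9.89% and 6.83% of all genes in the first 4, then 2.27%, 0.532% and 5.59%. Array weights gave 9 after 5 cGy, 11 for successive times (1 of them lower) and 1 for additivity. The calls of additivity and of priming in these settings were all lower, as was 1 of the 12 after 5 cGy + 2 Gy at the study's threshold. After 5 cGy + 2 Gy, 1 call of 10 was lower with the block and 1 of 10 with array weights. The probe set with the largest interquartile range gave 1 lower call of 8 there. Cyclic loess gave 4 after 2 Gy, the mean of the probe sets 2 after 5 cGy and 4 after 2 Gy, and the GAPDH covariate 1 for successive times. Without sham replicate 1 and replicate 1 of 5 cGy + 2 Gy at 12 h (chosen after seeing the data) the counts were 8 after 5 cGy, 11 after 5 cGy + 2 Gy (1 of them lower) and 6 for successive times. No share of all genes is given for array weights or for this setting. Leaving out 1 array gave 1 to 4 calls after 5 cGy, 3 to 9 after 2 Gy, 3 to 10 after 5 cGy + 2 Gy, 0 to 5 for successive times and 4 to 5 for the mean steps. Arrays whose absence moved a count against sham by over 1.5 times were, for 5 cGy, sham replicates 2 and 3 and replicates 2 and 3 of 5 cGy at 12 h and at 24 h (1 or 2 calls left). For 2 Gy they were sham replicates 2 and 3 and all 3 arrays of 2 Gy at 24 h (3 or 4 left), and for 5 cGy + 2 Gy sham replicate 2 (3 left) and replicate 1 of that group at 24 h (4 left). The mean steps of DDIT3, CHAC1 and DDIT4 from 3 h to 6 h kept their calls under all 13 other settings, and that of ATF4 lost it with only the arrays compared and, at a change under 1.2-fold, at the study's threshold.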
